A study of Mus musculus with 4 samples.

Results

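Collagen IV chains, nidogens and the basement membrane proteoglycans perlecan and agrin were followed in laser-captured epithelium of the fetal mouse kidney. The set held 10 genes, Col4a1 to Col4a6, Nid1, Nid2, Hspg2 and Agrn, and took every probe set that the platform annotation gives to one of these symbols. That came to 10 of 18193 genes and 20 of 34945 probe sets with 1 gene symbol. All samples were wild-type CD-1 embryos at E15.5 (E counts embryonic days; Theiler stage 23), of unknown sex. The collecting duct of the cortex, a part of the urine-collecting tree that sprouts from the ureteric bud, was measured on 1 array, numbered 3. The loop of Henle anlage, the tubule that goes on to build the thick ascending limb, was measured on 3 arrays, numbered 1 to 3. Each array held a pool of approximately 50 tissue sections taken from 5 kidneys, and its RNA went through 2 rounds of amplification. Nothing in the labels says whether pools shared embryos, so a p-value here measures only the spread between these samples, which may be technical.

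A basement membrane is the thin sheet of matrix on which an epithelium rests. Collagen IV chains join in threes into a network that gives the sheet its tensile strength, laminins form a second network on the cell side, nidogens tie the networks together, and perlecan and agrin carry heparan sulfate chains that bind water and growth factors. In the kidney the chains of Col4a1 and Col4a2 build most basement membranes, those of Col4a3, Col4a4 and Col4a5 form the network of the mature glomerular filter and of some tubules, and those of Col4a5 and Col4a6 form a network found, among other places, around collecting ducts.

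Values are log2(quantile-normalized signal + 109.6), so that 1 unit is a doubling of bright signal. The difference of a gene is the collecting duct value minus the mean of the 3 anlage values, given with its standard error (SE) from limma. The lone collecting duct array has no spread of its own, and the fit gives it that of the anlage. The brightest probe set stood for a gene that has several, and genes with a mean under 8.416 were not tested. Apart from a gene's probe set means and marker list sums, levels are compared between arrays for 1 probe set at a time. The brightness of different probes does not compare transcript amounts, and bright probe sets weigh most in the sums.

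The 2 segments carried the markers of their labels. All 12 tested collecting duct markers were higher in value in the collecting duct, 11 of them above every anlage array, while all 11 tested loop of Henle markers lay below all 3. The summed signal of the loop markers was 3097 in the collecting duct against 132122, 32629 and 108137 in anlage arrays 1, 2 and 3. Anlage array 2 stood apart in markers and in RNA quality signs. The summed signal of the collecting duct markers was 111342 in the collecting duct against 11067, 20296 and 9415 in anlage arrays 1, 2 and 3, and that of 7 tested cap mesenchyme markers was 16681 in the collecting duct against 16368, 38957 and 15854. Shortened transcripts raise the ratio of 3' to 5' probe set signal. For Gapdh this ratio was 12.05 in the collecting duct and 10.25, 54.08 and 26.02 in anlage arrays 1, 2 and 3, and for beta-actin it was 3.56 in the collecting duct and 3.06, 6.41 and 5.42 in the anlage. Leaving out array 2 moved several of the differences of the set below, and for most of these genes the values without it stand beside them. Differences of genes outside the set are given over all 3 anlage arrays only.

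No gene of the set passed the test between the collecting duct and the anlage. Nid1 and the collagen genes Col4a1, Col4a2 and Col4a6 had their lowest value of the 4 arrays in the collecting duct, and Col4a4 and Agrn their highest. Of the 10 genes 9 passed the filter on dim genes, all but Col4a3. limma called 0 of them higher (0% of 12642 tested genes) and 0 lower (0% of tested genes) at an adjusted p of 0.05, and every tested member had an adjusted p of 0.9999. Without adjustment 0 members reached 0.05, where 431 genes, 3.41% of those tested, did so. The collecting duct lay above all 3 anlage arrays in 2 of the 9, against 17.3% of tested genes, and below all 3 in 4 of the 9, against 24.3%. A difference of at least 1 was seen in 1 member (4.64% of tested genes) and one of -1 or less in 0 (6.99% of tested genes). The median difference of the 9 was -0.40 beside -0.06 over all tested genes, with 4 above 0 and 5 below.

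**Figure D1:**
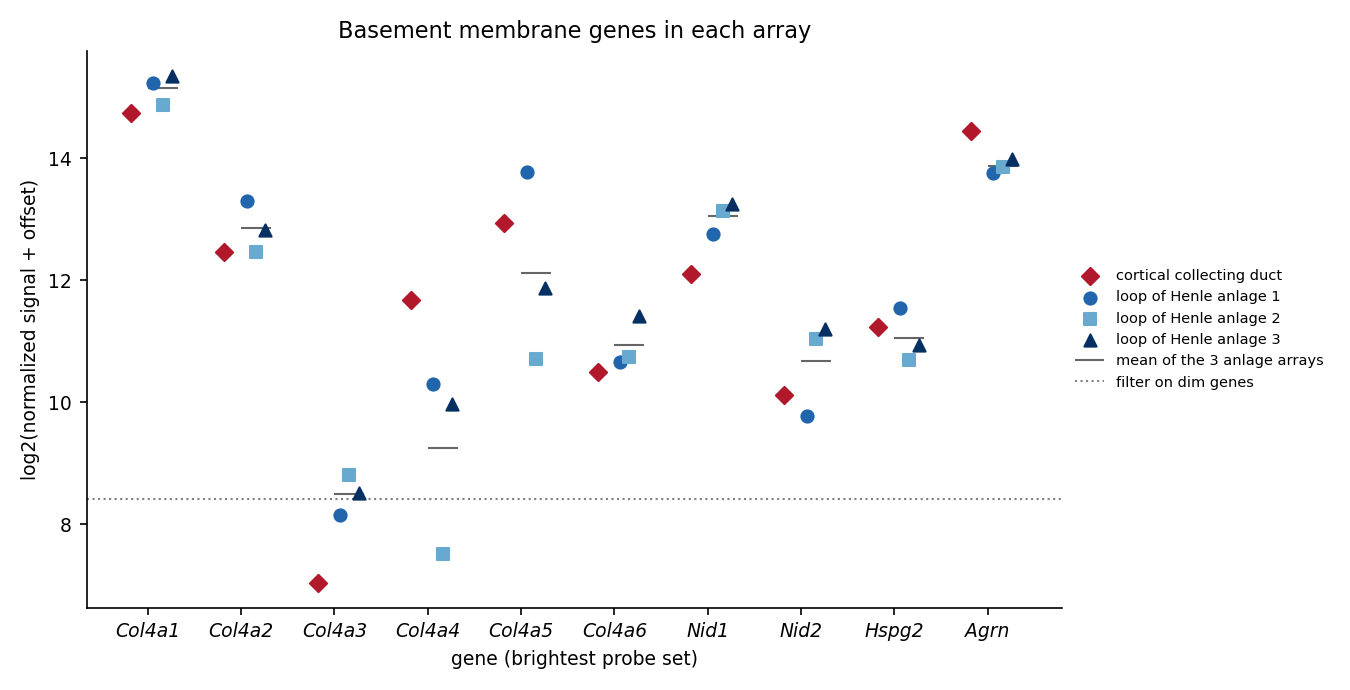
Log2(normalized signal + offset) of the brightest probe set of each gene (y axis) in the cortical collecting duct array (red diamonds) and the 3 loop of Henle anlage arrays (blue symbols), with the anlage mean as a bar and the filter on dim genes dotted. Col4a4 and Agrn have their highest point in the collecting duct, and the 3 anlage points of Agrn lie within 13.77 to 13.98 while those of Col4a4 run from 7.51 to 10.29.

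**Figure D2:**
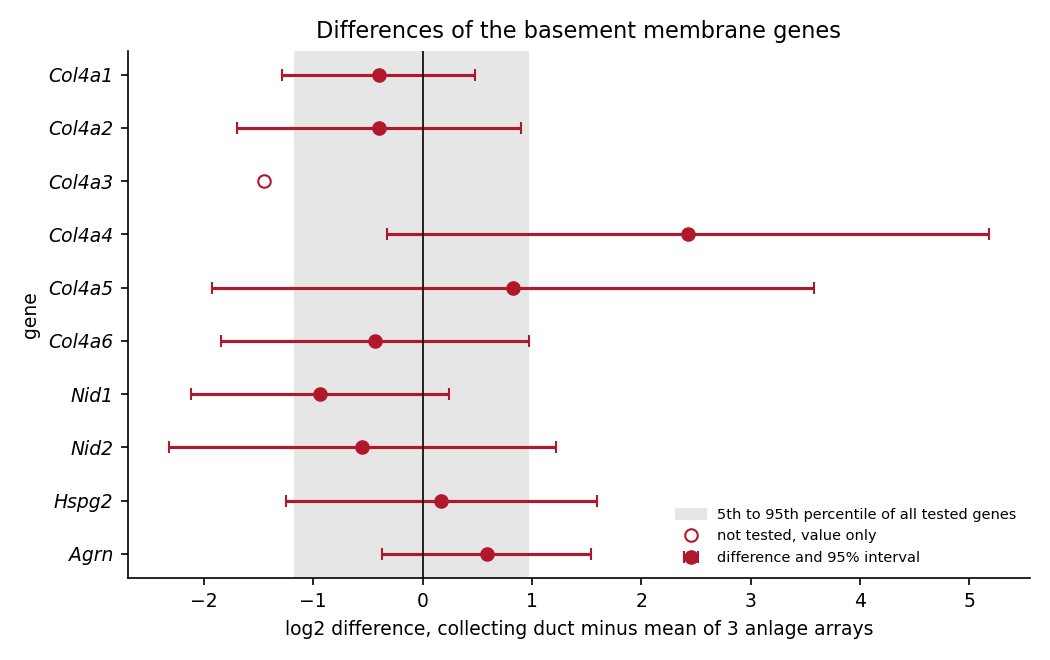
Log2 difference of each gene, collecting duct minus the mean of the 3 anlage arrays (x axis), with the 95% interval from limma as a bar and the range between the 5th and 95th percentile of all tested genes, -1.16 to 0.96, in grey. The interval of every tested gene crosses 0, and Col4a4 at 2.43 and the untested Col4a3 at -1.45 lie outside the grey range.

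Col4a1 and Col4a2 encode the chains of the collagen IV network common to most basement membranes. Col4a1 (probe set 1452035_at) had a value of 14.75 in the collecting duct, against 15.23, 14.87 and 15.35 in anlage arrays 1, 2 and 3. The collecting duct array was the lowest, though anlage array 2 was close to it. The difference was -0.40 ± 0.36 (SE), with a 95% interval of -1.28 to 0.48. It was -0.57 without anlage array 2, -0.76 with arrays scaled to a common median and -0.14 with the mean of both probe sets. Col4a2 (1424051_at) had 12.46 in the collecting duct, against 13.29, 12.46 and 12.82 in the anlage. Here too the collecting duct was lowest, but by less than 1 hundredth of a unit under anlage array 2. Its difference, -0.40 ± 0.53 (SE; 95% interval -1.70 to 0.90), became -0.19 without anlage array 1 and -0.58 without array 2. The intervals leave room for differences of either sign in both genes.

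The second probe set of Col4a1 gave another picture. On 1426348_at the collecting duct array had 12.80 and the anlage arrays 14.40, 11.33 and 12.32, so that the collecting duct lay within the anlage range (difference 0.11 ± 1.16, SE). That difference was -0.57 without anlage array 2 and 1.02 without array 1. The anlage arrays spread over more than 3 units on this probe set and over 0.48 units on 1452035_at.

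Col4a1 and Col4a2 lie head to head on mouse chromosome 8 and are read from opposite strands, and are known to share a promoter region. Their windows in the RefSeq promoter table (build GRCm38.p6), each 300 bases long with 250 of them before the annotated start, are shown because the start sites are 21 bases apart and 78 bases belong to both windows (chr8:11312777-11312854). Col4a1 is chr8:11312777-11313076 on the minus strand and Col4a2 is chr8:11312555-11312854 on the plus strand. The annotated start is 11312826 for Col4a1 and 11312805 for Col4a2, so the annotated transcripts overlap at their 5' ends. Both windows are printed 5' to 3' on the gene's own strand, with the shared bases in capitals, so the capitals of one are the reverse complement of those of the other.
Col4a1: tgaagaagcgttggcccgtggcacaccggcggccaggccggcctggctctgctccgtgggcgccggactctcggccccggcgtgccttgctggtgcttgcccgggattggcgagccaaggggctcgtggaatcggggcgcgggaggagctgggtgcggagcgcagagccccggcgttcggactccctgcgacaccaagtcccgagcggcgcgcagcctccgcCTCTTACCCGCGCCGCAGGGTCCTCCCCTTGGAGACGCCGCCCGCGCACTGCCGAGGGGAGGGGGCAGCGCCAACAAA
Col4a2: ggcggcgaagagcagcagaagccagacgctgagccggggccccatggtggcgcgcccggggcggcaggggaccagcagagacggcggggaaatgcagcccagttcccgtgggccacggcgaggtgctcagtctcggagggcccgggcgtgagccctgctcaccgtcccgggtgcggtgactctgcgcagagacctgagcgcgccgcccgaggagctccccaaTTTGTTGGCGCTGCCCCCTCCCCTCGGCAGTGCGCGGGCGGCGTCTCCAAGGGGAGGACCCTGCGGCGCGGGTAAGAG
All motifs were searched on both strands. The Col4a1 window held the GC box letters GGGCGG 1 time and the Col4a2 window 3 times, 1 match lying in the shared bases. The letters CCAAT were found 1 time in each window, never wholly within the shared bases, and TATAAA in neither. Over 32851 RefSeq promoter windows of the same length, 35.7% held GGGCGG, 37.4% CCAAT and 13.6% TATAAA. Such matches describe the letters only. Across the 4 arrays the centred profiles of Col4a1 and Col4a2, each from its brightest probe set, differed by a root mean square of 0.22 units. Ranked by this distance over 12641 other tested genes, Col4a2 was number 1021 from Col4a1, and Col4a1 was number 629 from Col4a2.

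Col4a3 and Col4a4 encode chains that, with that of Col4a5, replace the common collagen IV network in the maturing glomerular basement membrane. Col4a4 (1440250_at) had 11.68 in the collecting duct, against 10.29, 7.51 and 9.97 in anlage arrays 1, 2 and 3. In the deposited linear signal this was 3249 in the collecting duct, against 1373, 37 and 834. The collecting duct lay above all 3 anlage arrays, and anlage array 2 lay far under the other two. The difference of 2.43 ± 1.13 (SE), or 5.37-fold, had a 95% interval of -0.33 to 5.18 and an unadjusted limma p of 0.0745 (adjusted p = 0.9999). Without anlage array 2 the difference was 1.43, without array 1 it was 3.12 and without array 3 it was 2.79.

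The other probe sets of Col4a4 did not repeat the order of the anlage arrays. On 1445328_at the collecting duct array had 10.19, against 7.92, 10.36 and 7.17, and so lay just under anlage array 2 and above the other two (difference 1.71 ± 1.26, SE, and 2.56 without array 2). Anlage array 2 was the lowest array on 1440250_at and the highest on this probe set. The third probe set, 1425772_at, was dim everywhere, at 7.07 in the collecting duct against 6.93, 7.01 and 7.04, and was not tested. Averaged over all its probe sets, Col4a4 differed by 1.40 ± 0.43 (SE), which limma did not call (adjusted p = 1).

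Col4a3 was dim on both probe sets and was not tested. On 1438779_at the collecting duct array had 7.05, against 8.15, 8.81 and 8.52 in the anlage, which is 22 in the collecting duct against 255, 187 and 244 in deposited signal. The collecting duct was the lowest of the 4 arrays, by a difference of -1.45 that on this probe set was -2.47 with the lower offset and -0.92 with the higher offset tried before log2. On 1450224_at it had 8.02, against 8.51, 8.79 and 7.13, inside the anlage range (difference -0.12, and 0.20 without anlage array 2). Without anlage array 3 this became the brighter probe set, with a difference of -0.65. With no filter on dim genes the first probe set gave an unadjusted limma p of 0.0247 (adjusted p = 1). Col4a3 and Col4a4, neighbours on mouse chromosome 1 whose chains assemble together, thus had point values on opposite sides of 0, neither of them called. Podocytes, the glomerular cells known to make these chains, were followed by 9 tested markers, whose summed signal was 51663 in the collecting duct, against 40542, 54094 and 49555 in anlage arrays 1, 2 and 3. Cd2ap, an adaptor protein also made by other epithelia, carried much of this sum, and the other 8 markers summed to 15087 in the collecting duct, against 14701, 37347 and 16536. The sum of the 8 was therefore highest in anlage array 2, but not every marker was. Lmx1b had its lowest value there, and Tcf21 was slightly higher in anlage array 3. Of the 9 markers 3 had a positive difference and 6 a negative one, the receptor phosphatase Ptpro differing by -2.04. limma called none of them (adjusted p = 0.9999 for each), and their part in the Col4a3 and Col4a4 values was not tested.

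Col4a5 and Col4a6 encode the chains of the second tubular collagen IV network, and Col4a5 also joins Col4a3 and Col4a4. Col4a5 (1425475_at) had 12.95 in the collecting duct, against 13.77, 10.72 and 11.87 in anlage arrays 1, 2 and 3. The collecting duct stood under anlage array 1 and above the other two. The difference of 0.83 ± 1.13 (SE; 95% interval -1.93 to 3.58) was 0.11 without anlage array 2 and 1.73 without array 1. On the second probe set, 1425476_at, the collecting duct array had 10.93, against 9.996, 10.29 and 10.18. There it lay above all 3 anlage arrays, which were close together, with a difference of 0.77 ± 0.56 (SE). Both probe sets of Col4a5 thus had a positive difference and neither was called.

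Col4a6 (1421007_at) had 10.50 in the collecting duct, against 10.66, 10.74 and 11.42 in the anlage. The collecting duct was lowest, with anlage arrays 1 and 2 close above it and array 3 higher. The difference was -0.44 ± 0.58 (SE; 95% interval -1.85 to 0.97). It was -0.17 as the mean of both probe sets, -0.50 without anlage array 2 and -0.19 without array 3. On 1421006_at the collecting duct array had 9.30, against 9.38, 8.86 and 9.33, and lay within the anlage range (difference 0.10 ± 0.58, SE, and -0.059 without anlage array 2).

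Col4a5 and Col4a6 are also a head-to-head pair, on the X chromosome. Their RefSeq windows are shown for contrast with the first pair, since the annotated start sites are 1343 bases apart and the windows share 0 bases. Col4a5 is chrX:141475169-141475468 on the plus strand and Col4a6 is chrX:141474027-141474326 on the minus strand (GRCm38.p6), and capitals mark the letters GGGCGG or their reverse complement.
Col4a5: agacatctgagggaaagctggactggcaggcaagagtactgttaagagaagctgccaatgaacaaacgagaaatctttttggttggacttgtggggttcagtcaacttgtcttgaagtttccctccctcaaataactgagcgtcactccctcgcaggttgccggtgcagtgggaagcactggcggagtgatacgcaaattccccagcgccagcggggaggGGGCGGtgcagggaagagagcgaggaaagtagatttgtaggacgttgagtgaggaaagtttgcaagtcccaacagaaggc
Col4a6: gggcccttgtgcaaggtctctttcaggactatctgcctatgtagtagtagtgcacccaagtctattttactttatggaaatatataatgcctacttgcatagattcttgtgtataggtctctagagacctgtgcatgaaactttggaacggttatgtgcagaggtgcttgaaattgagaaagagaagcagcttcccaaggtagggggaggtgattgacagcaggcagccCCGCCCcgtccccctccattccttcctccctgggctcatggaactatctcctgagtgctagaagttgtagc
Each window held 1 GC box match. CCAAT was found 1 time in the Col4a5 window and 0 times in that of Col4a6, and TATAAA in neither. The share of G and C was 52.7% for Col4a5 and 48.3% for Col4a6, where it was 74% for Col4a1 and 73.7% for Col4a2. The 4-array profiles of Col4a5 and Col4a6, each from its brightest probe set, differed by a root mean square of 1.31 units. By this distance Col4a6 was number 6283 of 12641 genes from Col4a5, and Col4a5 number 12349 from Col4a6. The anlage arrays ranged over 3.05 units on the Col4a5 probe set used. The second probe sets of Col4a1 and Col4a5 ordered the arrays differently, and their profiles were not compared. Whether promoter layout bears on the distances of either pair was not tested.

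Nid1 and Nid2 encode the nidogens, which bind both laminin and collagen IV. Nid1 (1416808_at) had 12.11 in the collecting duct, against 12.76, 13.14 and 13.25 in anlage arrays 1, 2 and 3. In deposited signal this was 4352 in the collecting duct, against 6186, 10011 and 9984. The collecting duct was the lowest of the 4 arrays, by 0.65 units to the nearest. Its difference of -0.94 ± 0.48 (SE), or 1.92-fold lower, had a 95% interval of -2.12 to 0.24 and an unadjusted limma p of 0.0993 (adjusted p = 0.9999). Leaving out an anlage array gave values from -1.12 to -0.82.

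The other probe sets of Nid1 had differences above 0. On 1448469_at the collecting duct array had 9.90, against 9.32, 7.12 and 9.30, above all 3 anlage arrays (difference 1.32 ± 1.01, SE, and 0.55 without anlage array 2). On 1441519_at, which was under the filter, it had 9.12, against 9.42, 6.81 and 6.88, within the anlage range (difference 1.41, not tested). Anlage arrays 2 and 3 had deposited signals of 2 and 8 there, and the difference was 2.46 with the lower offset, 0.92 with the higher offset and 2.29 without array 1. Anlage array 2 was the lowest on both, and anlage array 3 was as low on the second. Averaged over its 3 probe sets, Nid1 differed by 0.60 ± 0.62 (SE), opposite in sign to its brightest probe set, so the data give Nid1 no settled direction.

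Nid2 (1423516_a_at), with 1 probe set, had 10.13 in the collecting duct, against 9.78, 11.04 and 11.21 in the anlage. The collecting duct lay above anlage array 1 and under the other two. The difference was -0.55 ± 0.72 (SE; 95% interval -2.32 to 1.22), and it was -1.08 without anlage array 1, -0.34 without array 2 and -0.28 without array 3. The profiles of Nid1, from its brightest probe set, and Nid2 differed by a root mean square of 0.41 units, Nid2 being number 3118 of 12641 genes from Nid1. The other Nid1 probe sets were not compared with Nid2.

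Markers of endothelium, which rests on a collagen IV and nidogen basement membrane of its own, varied between the same arrays. The collecting duct was lower than the anlage mean for all 13 tested endothelial markers of 15. It lay below every anlage array for 9 of the 13, against 24.3% of all tested genes. The summed signal of the endothelial markers was 7869 in the collecting duct, against 13133, 25529 and 27081 in anlage arrays 1, 2 and 3. Tek, an angiopoietin receptor, had 8.25 in the collecting duct against 9.83, 11.57 and 11.07, and Pecam1 was under the filter. The summed signal of 9 tested mural cell markers of 9 on the array was 8511 in the collecting duct, against 8614, 16514 and 25321. That of 13 tested interstitial stroma markers was 185128 in the collecting duct, against 166662, 154734 and 451266. A lower collecting duct value was not particular to endothelium. Differences were negative for 8 of 9 tested proximal tubule markers, 6 of 7 of cap mesenchyme and 8 of 13 of stroma. They were also negative for 6 of 8 macrophage and leukocyte markers and 4 of 4 erythroid markers. Over all tested genes 6940 of 12642 differences were negative, and the stroma count lies near that share. Nid2 and the 1416808_at probe set of Nid1 had their higher values in anlage arrays 2 and 3, where the endothelial and mural sums were also higher, while the other Nid1 probe sets were lowest in array 2. Nid2 was lower in anlage array 1 (9.78) than in the collecting duct (10.13), whose endothelial sum was the lowest. Col4a2 was highest in anlage array 1 (13.29), whose endothelial sum was the lowest of the anlage. The part of these cells in the nidogen and collagen IV values was not tested. In captured tissue of this kind, fewer cells of a type and less RNA per cell cannot be told apart.

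Hspg2 encodes perlecan and Agrn encodes agrin, the heparan sulfate proteoglycans of basement membranes. Agrn (1426670_at) had 14.45 in the collecting duct, against 13.77, 13.85 and 13.98 in anlage arrays 1, 2 and 3. In deposited signal this was 20984 in the collecting duct, against 11745, 16975 and 17060. The collecting duct was the highest of the 4 arrays, and the anlage arrays spread over little (SD 0.11, n = 3). The difference of 0.59 ± 0.39 (SE) had a 95% interval of -0.37 to 1.54 and an unadjusted limma p of 0.183 (adjusted p = 0.9999). It ranged from 0.53 to 0.64 as single anlage arrays were left out and was 0.21 with arrays scaled to a common median, where the collecting duct no longer lay above all 3 anlage arrays. With the mean of both probe sets it was 1.27.

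On the second Agrn probe set, 1443980_at, the collecting duct array had 13.61, against 14.30, 9.34 and 11.34. The collecting duct lay within the anlage range, which spanned almost 5 units (difference 1.95 ± 1.77, SE). Without anlage array 2 the difference was 0.74 and without array 1 it was 3.45. Hspg2 (1418669_at) had 11.23 in the collecting duct, against 11.55, 10.69 and 10.94. It too lay within the anlage range, with a difference of 0.17 ± 0.58 (SE; 95% interval -1.25 to 1.59) that was -0.02 without anlage array 2, 0.45 without array 1 and 0.42 as the mean of both probe sets. On 1418670_s_at Hspg2 had 10.44 in the collecting duct, against 9.91, 9.59 and 9.83, above all 3 anlage arrays (difference 0.67 ± 0.57, SE). Hspg2 and Agrn profiles, each from its brightest probe set, differed by a root mean square of 0.41 units, Agrn being number 3354 of 12641 genes from Hspg2. Their second probe sets were not compared.

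Probe sets of the same gene often ordered the 4 arrays differently. Of the 20 probe sets 16 passed the filter. The collecting duct lay above all 3 anlage arrays in 5 of them, against 17.5% of 22499 tested probe sets, and below all 3 in 4, against 22.5%. Anlage array 2 was the lowest of the 4 arrays in 8 of the 16, where it was lowest in 25.9% of tested probe sets. It lay at least 2 units under anlage array 1 in 5 of the 16, against 7.96% of tested probe sets. These were 1426348_at of Col4a1, 1440250_at of Col4a4, 1425475_at of Col4a5, 1448469_at of Nid1 and 1443980_at of Agrn. Anlage array 2 is also the array with the highest Gapdh and beta-actin ratios, and the part of shortened RNA in these values was not tested. Both counts were chosen after the values were seen.

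**Figure D3:**
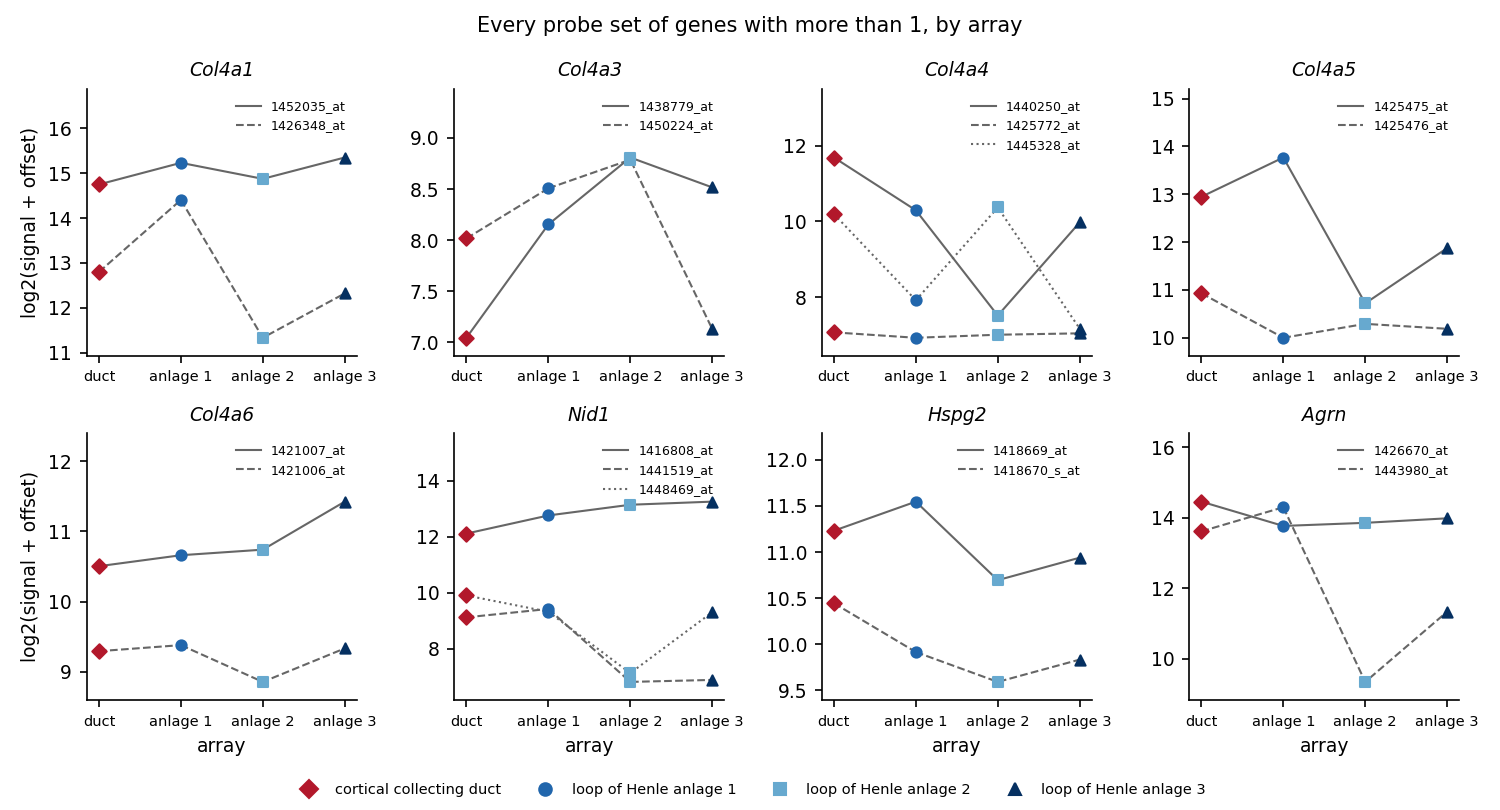
Log2(signal + offset) of every probe set (y axis) of the 8 genes with more than 1, in the collecting duct array and anlage arrays 1 to 3 (x axis), with a line style per probe set that only joins the points. Anlage array 2 lies at least 2 units under array 1 on 1 probe set each of Col4a1, Col4a4, Col4a5 and Agrn and on 1448469_at and the dim 1441519_at of Nid1, while another probe set of the same gene does not follow.

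The anlage arrays spread by 1 unit or more in 3 of the 9 tested genes, Col4a4, Col4a5 and Nid2, beside 43.0% of all tested genes. The genes with 4-array profiles nearest to each member were Fancf and Mapk14 for Col4a1, Ccl4 and St8sia5 for Col4a2, Slc9a8 and Hspa1a for Col4a4, Pard3b and Garem1 for Col4a5, and Jph4 and Adamts10 for Col4a6. They were Adam9 and Rtel1 for Nid1, Txlng and Wwtr1 for Nid2, Sptan1 and Adam33 for Hspg2, and Arsk and Srsf5 for Agrn. The distance, a root mean square over 4 arrays, was 0.31 for both neighbours of Col4a4 and from 0.02 to 0.07 for those of the other members. With only 4 arrays and 12641 other genes close profiles are easily found, and shared regulation was not tested. No member was among the 2 nearest genes of another.

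Other genes of the basement membrane pathway gave 0 calls in 6 lists (limma, adjusted p = 0.9999 for every gene named here). Of 9 tested laminin chains 6 had a positive difference, with a median of 0.27. An unadjusted limma p under 0.05 was seen for 2 of the 9, against 3.41% of all tested genes. Lama5, the laminin chain typical of maturing epithelial basement membranes, had 12.83 in the collecting duct, against 10.15, 10.87 and 10.27 in anlage arrays 1, 2 and 3 (difference 2.40 ± 0.57, SE). Lama1, the chain of early nephron epithelium, had 11.34 in the collecting duct, against 12.97, 12.27 and 12.71 (difference -1.30 ± 0.53, SE). The collecting duct thus lay above all anlage arrays for Lama5 and below all for Lama1. Lamc1, a chain of most laminins, differed by 1.06 ± 1.44 (SE). It had 13.45 in the collecting duct, against 14.14, 10.13 and 12.88, and so lay within an anlage range set by a low array 2.

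Enzymes and carriers of collagen IV synthesis and crosslinking were balanced, with 12 of 23 tested genes above 0 and a median difference of 0.04. Over all tested genes 5702 of 12642 differences were above 0. An unadjusted limma p under 0.05 was seen for 0 of the 23, against 3.41% of all tested genes. The collagen export receptor Mia3 differed by 1.27 ± 1.27 (SE), the prolyl hydroxylase subunit P4ha1 by 0.88 ± 0.73 and the lysyl hydroxylase Plod2 by 0.88 ± 0.54. Mia3 had 14.6 in the collecting duct, against 15.3, 11.6 and 13.1 in anlage arrays 1, 2 and 3. Of 21 tested genes of heparan sulfate synthesis and editing 11 were above 0 (median 0.14). The sulfotransferase Hs3st3b1 differed by -2.15 ± 0.65 (SE), the extracellular sulfatase Sulf1 by -1.76 ± 1.62 and the sulfotransferase Hs6st2 by 1.10 ± 0.58. Hs3st3b1 was the 1 gene of the 21 with an unadjusted limma p under 0.05, against 3.41% of all tested genes.

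Of 16 tested cell surface receptors 8 were above 0 (median -0.01), and 2 had an unadjusted limma p under 0.05. That level was reached by 3.41% of all tested genes, and 5702 of 12642 were above 0. The laminin receptor subunit Itga6 differed by -1.82 ± 0.52 (SE), the glypican Gpc4 by -1.29 ± 0.42 and the agrin receptor Lrp4 by 0.95 ± 0.76. Among 20 tested other basement membrane components 9 were above 0 (median -0.04), and 2 had an unadjusted limma p under 0.05. The integrin ligand Npnt (nephronectin) had 14.96 in the collecting duct, against 11.25, 13.43 and 12.55 in the anlage (difference 2.55 ± 0.85, SE). The matricellular genes Smoc1 and Smoc2 differed by -1.91 ± 1.04 and 1.59 ± 0.64 (SE). Of 16 tested proteases and inhibitors 6 were above 0 (median -0.25), and 0 had an unadjusted limma p under 0.05. The serine protease Htra1 differed by -2.71 ± 1.49 (SE), urokinase Plau by -1.86 ± 2.08 and the metalloproteinase inhibitor Timp3 by -1.57 ± 0.64.

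**Figure D4:**
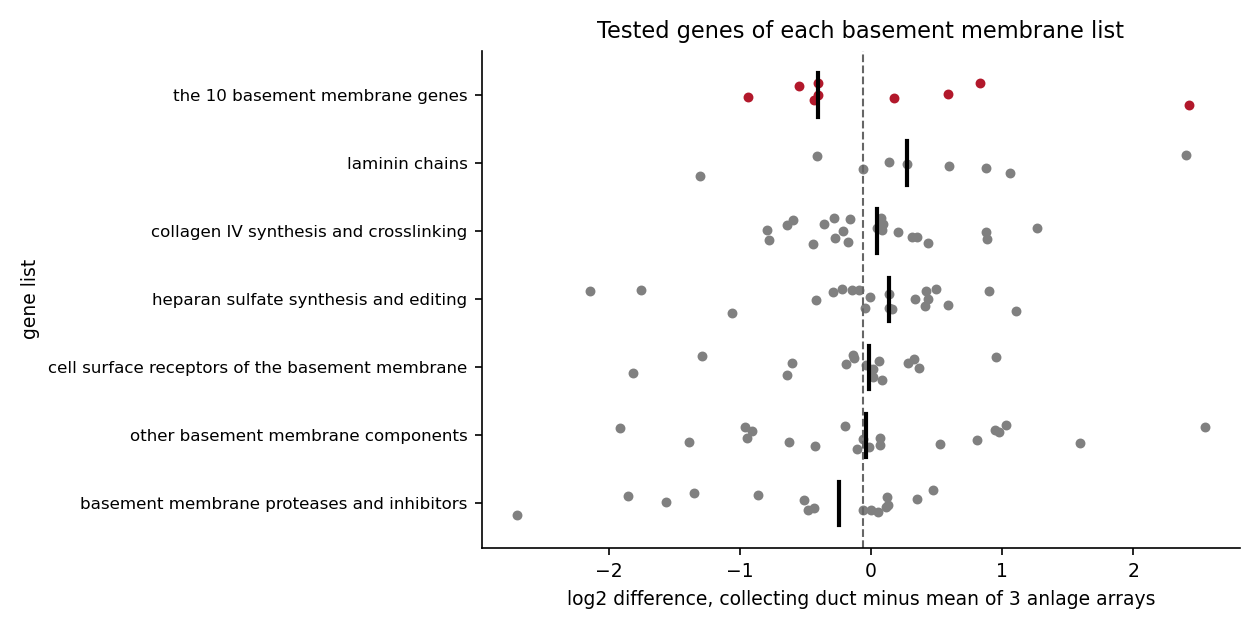
Log2 difference, collecting duct minus the mean of the 3 anlage arrays (x axis), of each tested gene (dots, spread vertically for clarity) in the set of 10 genes and 6 lists of basement membrane genes, with list medians as black bars and the median of all tested genes, -0.06, dashed. The 9 tested genes of the set, in red, have a median of -0.40 and run from Nid1 at -0.94 to Col4a4 at 2.43.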

How the data were processed

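The deposited values were intensity values per probe set on a linear scale, made with GCOS per the submitters' processing notes. Neither the GCOS version nor its algorithm is given in the sources used here. The trimmed mean (2% left out at each end) was 1500 in all 4 arrays, with medians from 206.9 to 526.5. Detection calls were not used here, and depth does not apply to arrays, whose number limits the precision.

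The arrays were quantile normalized, 109.6 (the 25th percentile) was added and log2 was taken. Of 45037 probe sets that are not controls, 34945 had 1 symbol, 932 several and 9160 none in the platform table. Only those with 1 symbol were used, the brightest per gene. Genes with a mean log2 value under 8.416 (40th percentile) were left out, which kept 12642 of 18193. limma 3.58.1 in R 4.3.3 (lmFit, eBayes with an intensity trend, two-sided, Benjamini-Hochberg over all tested genes, threshold 0.05) had 2 residual and 4.04 prior degrees of freedom. Its code was tested on simulated data. With 1 array against 3 the smallest exact permutation p is 0.25.

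Normalization, offset, filter, probe set summary, variance model and each anlage array were varied. The members and gene lists were chosen with earlier results of these data known. Named genes were all members, the 3 largest differences per pathway list, the 2 nearest profiles per member and markers that bear on a member. Promoter windows came from RefSeq (GRCm38.p6), where 8 of 10 members matched.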

Additional observations from a re-analysis of the deposited data

How the results depend on the processing

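In every refit over 2 or 3 anlage arrays 0 members were called, and the sign of each tested member held except for Nid1, which differed by 0.60 with the mean of all probe sets, and Hspg2, which differed by -0.016 without anlage array 2 (and by up to 0.45 as other anlage arrays were left out). Scaling the arrays to a common median moved the median difference of all genes by -0.18. It gave 1 member at an unadjusted limma p under 0.05 (Col4a4) in place of 0, and 1 member with the collecting duct above all anlage arrays (Col4a4) in place of 2, where the share of all tested genes was 10.1% in place of 17.3%. With no filter 647 of 18193 genes had an unadjusted limma p under 0.05, in place of 431 of 12642, and 1 member did (Col4a3). The mean of all probe sets gave 1 member at that level (Col4a4), 4 members above all anlage arrays in place of 2 (19.2% of genes) and 1 below all in place of 4 (23.8% of genes). With every probe set its own feature, 5 of 16 lay above all anlage arrays. As single anlage arrays were left out, genes at an unadjusted p under 0.05 ran from 192 (without array 3) to 1401 (without array 1), and members from 0 to 3, the 3 being Col4a4, Col4a5 and Nid1 without array 1 (adjusted p from 0.38 to 0.42). Members above all anlage arrays ran from 2 to 4, beside 22.8% to 27.8% of genes, and below all from 4 to 5, beside 28.5% to 47.6% of genes (47.6% without array 1). Without array 2, limma called 3 genes higher and 11 lower, none of them members, and 0 without array 1 or 3. Against anlage array 1 alone, a setting chosen after seeing the data because that array has the nearest Gapdh and beta-actin ratios, Col4a5 differed by -0.82, Nid2 by 0.35 and Hspg2 by -0.32, with no test. The cause of these changes was not tested. No paired analysis was possible because the groups share only 1 replicate number. With 1 collecting duct array the intervals are wide, and a difference as large as that of Col4a4 was not called.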
